A study of Mus musculus with 49 samples.

Results

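The genes described here are 10 genes of lung epithelium out of 55487 genes counted, chosen by name as a set of surfactant, secretory and epithelial identity genes: Sftpc, Sftpa1, Sftpb, Sftpd, Scgb1a1, Scgb3a2, Ager, Foxj1, Nkx2-1 and Lamp3. They were followed in all 49 RNA sequencing libraries of 6 HuHER2 transgenic mice with mammary tumors that could be felt, palpation having begun at 7 months of age. Of these mice 3 received BP, a preparation given in the labels only by this code and named an iron oxide nanoparticle in the study's title, at 5 mg Fe per mouse in 1 injection, and 3 received PBS. The design text puts the collection of organs 7 days after treatment. A label on treatment gives 31 days instead. Bulk tissue of 6 kinds (lung, tumor, bone marrow, liver, spleen and lymph node) gave 36 libraries, 3 BP and 3 PBS for each. A further 13 libraries came from cells of BP mice that a magnet had separated because they held nanoparticles, called nanoparticle-associated cells here: 1 from lymph node and 3 each from bone marrow, liver, spleen and tumor. Lung has no library of such cells, and all 6 mice, BP and PBS, bore tumors and carried the transgene. The sources used here give no promoter for the transgene and do not say whether the blood was washed out of the organs.

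The alveoli of the lung are lined by type 1 cells, thin cells across which gas passes, and by type 2 cells, which make surfactant, the film of lipid and protein that keeps alveoli open. The conducting airways are lined by club cells, which secrete small proteins of the secretoglobin family, and by ciliated cells, which move mucus. The transcription factor NKX2-1 marks the lung lineage and, outside it, the thyroid and parts of the forebrain, and it is known to act on surfactant genes. Several of these genes are not exclusive to lung epithelium: Lamp3 also marks mature dendritic cells, Sftpd is made in other glandular and mucosal epithelia, and Ager is known from several other cell types at low levels.

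The promoters of 5 of the 10 genes were taken from RefSeq (build GRCm38.p6), and 3 are shown because they hold a match to a motif of a factor in the set or its family. Each is the 250 bases before the RefSeq transcription start, which for Sftpa1 and Lamp3 lies slightly inside the gene positions given below. They are read 5′ to 3′ along the gene's strand, with motif matches in capitals: CTCAAG, a core of NKX2-1 sites, in Sftpb (chr6:72304360-72304609, plus strand) and Sftpa1 (chr14:41131538-41131787, plus strand), and TGTTTAC, a forkhead motif, in Lamp3 (chr16:19706366-19706615, minus strand).
Sftpb: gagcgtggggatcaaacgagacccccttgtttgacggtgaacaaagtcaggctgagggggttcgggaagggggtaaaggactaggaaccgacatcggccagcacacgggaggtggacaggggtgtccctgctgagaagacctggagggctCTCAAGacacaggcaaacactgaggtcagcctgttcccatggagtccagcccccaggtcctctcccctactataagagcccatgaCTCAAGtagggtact
Sftpa1: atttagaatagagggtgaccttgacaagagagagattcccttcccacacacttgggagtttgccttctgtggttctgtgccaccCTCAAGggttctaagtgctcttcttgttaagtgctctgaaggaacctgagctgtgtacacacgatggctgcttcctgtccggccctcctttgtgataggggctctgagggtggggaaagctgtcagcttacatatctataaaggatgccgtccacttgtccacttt
Lamp3: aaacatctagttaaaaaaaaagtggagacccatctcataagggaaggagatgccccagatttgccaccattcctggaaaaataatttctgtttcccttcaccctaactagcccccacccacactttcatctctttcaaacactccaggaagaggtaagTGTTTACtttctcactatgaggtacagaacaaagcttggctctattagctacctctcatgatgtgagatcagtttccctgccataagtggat
Both strands were searched. Sftpb held 2 matches to CTCAAG and Sftpa1 held 1, while 13.3% of 32851 promoter windows of the same length held at least 1 and 0.998% held at least 2. TGTTTAC or TATTTAC occurred in 5.76% of the windows. Neither motif was found in the windows of Ager and Nkx2-1. A match of letters is a description of the sequence, not of binding.

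Library totals ran from 9362264 to 19734849 expected counts. Levels below are CPM, in which each count is divided by its library's total and scaled alike in all libraries, and a library with 0 counts of a gene may still hold up to 3, which is 0.152 to 0.32 CPM. Marker genes higher in each of the 6 lungs than in any of the other 43 libraries were counted. They were 15 of 16 type 1, 19 of 20 ciliated and 13 of 20 type 2 genes. They were also 7 of 16 airway secretory, 8 of 19 surfactant processing and 9 of 15 lung transcription factor genes. Of other lung cells, 8 of 12 endothelial and mesenchymal genes and only 1 of 13 alveolar macrophage genes were. Of all 55487 genes 2.6% were, and of the 15252 genes with a mean of at least 1 CPM in lung 8.81%. The lung of PBS mouse 1 stood apart from the other lungs. It held Fos, an immediate early gene, at 249 CPM against 20.1 to 47.0 CPM in the other 5, and 13 alveolar macrophage genes with a summed level of 491 CPM against 1555 to 1982 CPM. Lalba, which encodes a milk protein, reached 142 CPM in lung PBS 2, against 0.626 to 2.57 CPM in the other lungs.

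The hydrophobic surfactant proteins, which spread the surfactant film, were abundant in every lung. Gene positions are those of the GENCODE annotation on mouse build GRCm38. Sftpc, which encodes surfactant protein C and lies on chromosome 14 (70520949 to 70524081, minus strand), stood at 27501, 26028 and 17852 CPM in BP lungs and at 12296, 24569 and 18483 CPM in PBS lungs. Sftpb, for surfactant protein B on chromosome 6 (72304610 to 72314371, plus strand), stood at 2273, 2268 and 1765 CPM in BP lungs and at 1934, 1483 and 1904 CPM in PBS lungs. The lowest Sftpc value belonged to PBS mouse 1 and the lowest Sftpb value to PBS mouse 2, and the BP and PBS values overlapped for both genes.

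The hydrophilic surfactant proteins are collectins, lectins that bind microbes in the airspace. Their genes lie near each other on chromosome 14. Sftpa1 (41131782 to 41136452, plus strand), for surfactant protein A, had 3306, 2934 and 2517 CPM in BP lungs and 2184, 2642 and 2442 CPM in PBS lungs. For Sftpd (41172214 to 41185149, minus strand), which encodes surfactant protein D, the values were 979, 775 and 561 CPM in BP lungs and 550.3, 807 and 624 CPM in PBS lungs. Sftpa1 varied by 14.8% over the 6 lungs (coefficient of variation) and Sftpd by 23.4%, and neither gene separated the groups.

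Scgb1a1, the club cell secretory protein gene (chromosome 19, 9083636 to 9087958, minus strand), had the highest CPM of the 10 genes in 5 of 6 lungs. It stood at 36474, 21432 and 34039 CPM in BP lungs and at 44783, 26583 and 28110.3 CPM in PBS lungs. In BP mouse 2 Sftpc was higher than Scgb1a1. Scgb3a2, a second airway secretoglobin gene (chromosome 18, 43764289 to 43767399, plus strand), had 2124, 675 and 1146 CPM in BP lungs and 1222, 1508 and 1019 CPM in PBS lungs. Its values spread 3.14-fold over the lungs, with the highest and the lowest both among BP mice.

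Ager encodes the receptor for advanced glycation end products, a surface protein of type 1 cells (chromosome 17, 34597862 to 34600936, plus strand). It had 4093, 4071 and 2646 CPM in BP lungs and 2384, 3845 and 3205 CPM in PBS lungs. The lung of PBS mouse 1 was lowest, as it was for Sftpc.

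The other members are regulators and a membrane protein, at lower levels. Foxj1, the transcription factor of motile cilia (chromosome 11, 116330704 to 116335399, minus strand), had 109.6, 39.9 and 93.4 CPM in BP lungs and 163, 44.6 and 93.5 CPM in PBS lungs. Nkx2-1 (chromosome 12, 56531958 to 56536908, minus strand) had 187, 163 and 161 CPM in BP lungs and 301, 119.7 and 167 CPM in PBS lungs. Lamp3, which encodes a lysosome-associated protein found on the lamellar bodies that store surfactant (chromosome 16, 19653378 to 19706375, minus strand), had 445, 459.5 and 337 CPM in BP lungs and 320.1, 361 and 349 CPM in PBS lungs. The lung of PBS mouse 1 was highest for Foxj1, Nkx2-1 and Scgb1a1 and lowest for Sftpc, Sftpa1, Sftpd, Ager and Lamp3. Foxj1 spread most (4.07-fold) and Lamp3 least (1.44-fold) of the 10 genes.

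**Figure D1:**
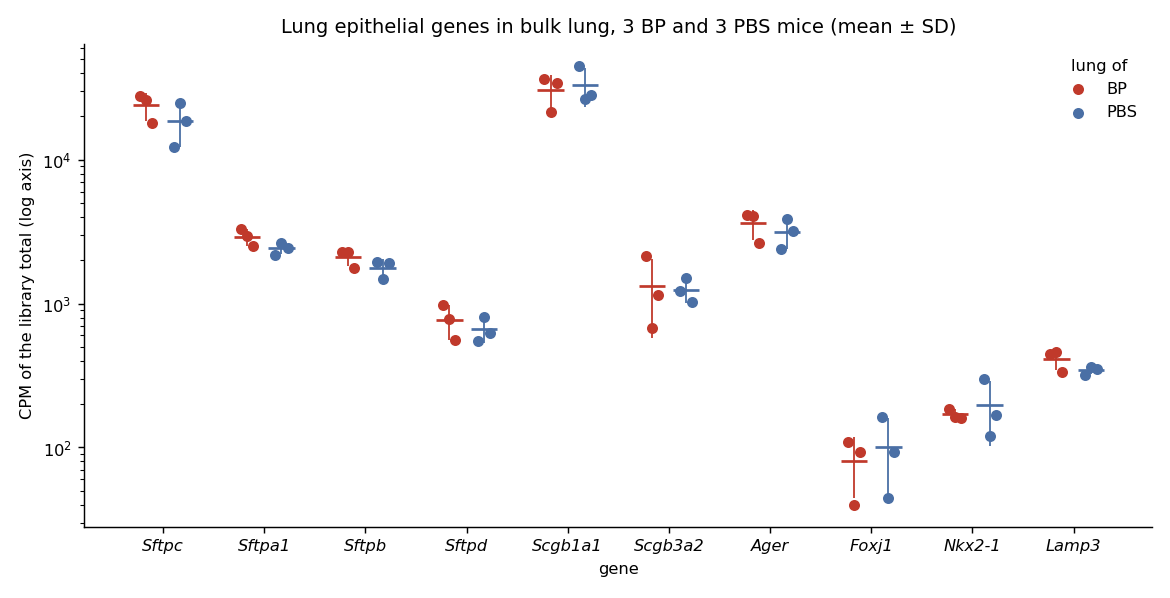
CPM of the library total (log axis) of each gene in the 3 BP lungs (left, red) and the 3 PBS lungs (right, blue), with the mean and SD of each group. The points of BP and PBS lungs overlap for each of the 10 genes, and the 10 genes span from 39.9 CPM (Foxj1) to 44783 CPM (Scgb1a1).

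Compared per kilobase of exon, on the median over the 6 lungs, the order of levels was Scgb1a1 (65283 CPM per kb), Sftpc (20818), Ager (1646), Scgb3a2 (1345), Sftpb (975), Sftpa1 (902), Sftpd (289), Lamp3 (106), Nkx2-1 (58.1) and Foxj1 (35.6). The ranges over lungs of neighbours from Ager to Sftpa1 overlapped, as did those of Lamp3, Nkx2-1 and Foxj1 with their neighbours, while Scgb1a1, Sftpc and Sftpd overlapped with none. Relative to Sftpc, Scgb1a1 had 133, 82.3 and 191 counts per 100 Sftpc counts in BP lungs and 364, 108 and 152 in PBS lungs. The lowest ratio was in BP mouse 2 and the highest in PBS mouse 1. Ager per 100 Sftpc counts stayed between 14.8 and 19.4 in the 6 lungs. In bulk tissue, fewer cells of a type and less RNA per cell cannot be told apart.

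The first comparison asks whether BP treatment changed these genes in lung, where the design text states that no nanoparticles were detected. None of the 10 genes, all of which passed the filter on low counts, was called by edgeR's quasi-likelihood test at an adjusted p under 0.05. The background was 0% of 15714 genes called, with 137 genes at an unadjusted p under 0.05, and DESeq2 called 0 genes as well. Log2 fold changes, BP over PBS, were 0.37 ± 0.53 (standard error) for Sftpc, 0.29 ± 0.29 for Sftpa1, 0.30 ± 0.25 for Sftpb, 0.24 ± 0.32 for Sftpd, 0.21 ± 0.37 for Ager and 0.30 ± 0.22 for Lamp3. They were -0.06 ± 0.51 for Scgb1a1, 0.09 ± 0.43 for Scgb3a2, -0.22 ± 0.45 for Foxj1 and -0.12 ± 0.27 for Nkx2-1. The adjusted p was 1 for each. In these 3 against 3 lungs no gene of the set separated the groups without overlap, which 4% of the tested genes did.

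Other genes of the same cell types behaved alike in counts of calls. None of the 20 type 2, 16 type 1, 15 tested airway secretory, 19 tested ciliated or 15 lung transcription factor genes was called. The type 2 list, which holds 5 of the genes above, had 17 of 20 genes above 0 and a median log2 fold change of 0.26, and the type 1 list had 15 of 16 above 0 and a median of 0.19, where the median of all genes was -0.01. The ciliated list had 8 of 19 above 0 (median -0.02) and the airway secretory list 7 of 15 (median -0.04). Without the lung of PBS mouse 1, the log2 fold change of Sftpc was 0.11, that of Ager 0.002 and that of Nkx2-1 0.23.

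The second comparison set lung against each other organ of the PBS mice. All 10 genes were called higher in lung than in tumor, lymph node, spleen, liver and bone marrow by edgeR in a fit of 18 libraries. The libraries came from the 3 PBS mice and the fit had no term for the mouse, although organs of 1 mouse are not independent. Genes near 0 outside lung, such as Nkx2-1, passed the filter through lung alone. The background of genes called higher was 24.9% against tumor, 21.6% against lymph node, 27.6% against spleen, 34.7% against liver and 33% against bone marrow. For 8 genes the log2 differences were 9.83 to 11.49 against tumor, 8.01 to 9.69 against lymph node, 7.89 to 10.83 against spleen, 8.23 to 9.01 against liver and 8.71 to 10.42 against bone marrow (adjusted p at most 0.00166). Sftpd and Foxj1 differed least against tumor, by 3.14 ± 0.92 for Sftpd (adjusted p = 0.01) and 4.17 ± 0.80 for Foxj1 (adjusted p = 0.000445). Of all 55487 genes, 2.6% were higher in each lung than in each of the other 43 libraries, and of the 15252 genes with a mean of at least 1 CPM in lung 8.81% were. All 10 members were.

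Outside lung the genes were present at traces. Whether these counts came from RNA made in those organs or from lung RNA that reached the libraries was not tested, so each CPM outside lung is a level measured in a library, not shown to be expression by that organ. Over the 43 other libraries the median of Sftpc was 22.3 CPM, or 0.104% of its lung median, and its highest value was 145 CPM. Median levels of the other genes were 0.0801% (Sftpb) to 0.441% (Foxj1) of their lung medians. The highest values were 0.472 to 0.933% of the lung median, except for Sftpd (23%) and Foxj1 (13.9%).

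In nanoparticle-associated cells Sftpc stood at 83.6, 20.6 and 19.8 CPM in tumor, 64.3, 0.0881 and 0.0692 CPM in spleen, 116, 53.8 and 0.183 CPM in liver, and 32.7, 0.0901 and 0 CPM in bone marrow (mice 1, 2 and 3). In bulk organs of BP mice it stood at 9.6, 16.9 and 134 CPM in tumor, 38.4, 145 and 52.5 CPM in lymph node, 18.1, 29.9 and 114 CPM in spleen, 38.8, 30.3 and 48.6 CPM in liver, and 16.8, 24.9 and 59.0 CPM in bone marrow. In bulk organs of PBS mice the values were 0.152, 13.1 and 15.3 CPM in tumor, 26.6, 30.3 and 22.8 CPM in lymph node, 0.198, 22.3 and 22.5 CPM in spleen, 13.1, 11.5 and 30 CPM in liver, and 0.077, 16.0 and 18.4 CPM in bone marrow. At or below 3 counts of Sftpc were 9 libraries: 3 organs of PBS mouse 1 (tumor, spleen and bone marrow), and, among nanoparticle-associated cells, those of liver (mouse 3), spleen and bone marrow (mice 2 and 3) and lymph node (mouse 2). The 9 libraries cross the organs and both treatments, and the liver and lymph node of the same PBS mouse 1 held Sftpc at 13.1 and 26.6 CPM.

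Scgb1a1 was low and high in the same libraries. Nanoparticle-associated cells held it at 167, 36.7 and 45.3 CPM in tumor, 127, 0 and 0.138 CPM in spleen, 96.9, 109.9 and 0.0916 CPM in liver and 61.3, 0.0901 and 0.192 CPM in bone marrow. Bulk BP organs held 15.4, 29.4 and 128 CPM in tumor, 53.6, 116 and 110.1 CPM in lymph node, 32.7, 44.0 and 94.9 CPM in spleen, 43.7, 44.4 and 62.5 CPM in liver and 25.0, 34.7 and 49.6 CPM in bone marrow. Bulk PBS organs held 0, 45.7 and 17.1 CPM in tumor, 94.5, 31.6 and 33.9 CPM in lymph node, 0.297, 75.9 and 25.8 CPM in spleen, 14.7, 17.4 and 79.5 CPM in liver and 0.616, 59.0 and 22.4 CPM in bone marrow. Of the 9 libraries with at most 3 Sftpc counts, 8 also had at most 3 of Scgb1a1, and bone marrow of PBS mouse 1 had 8.

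**Figure D2:**
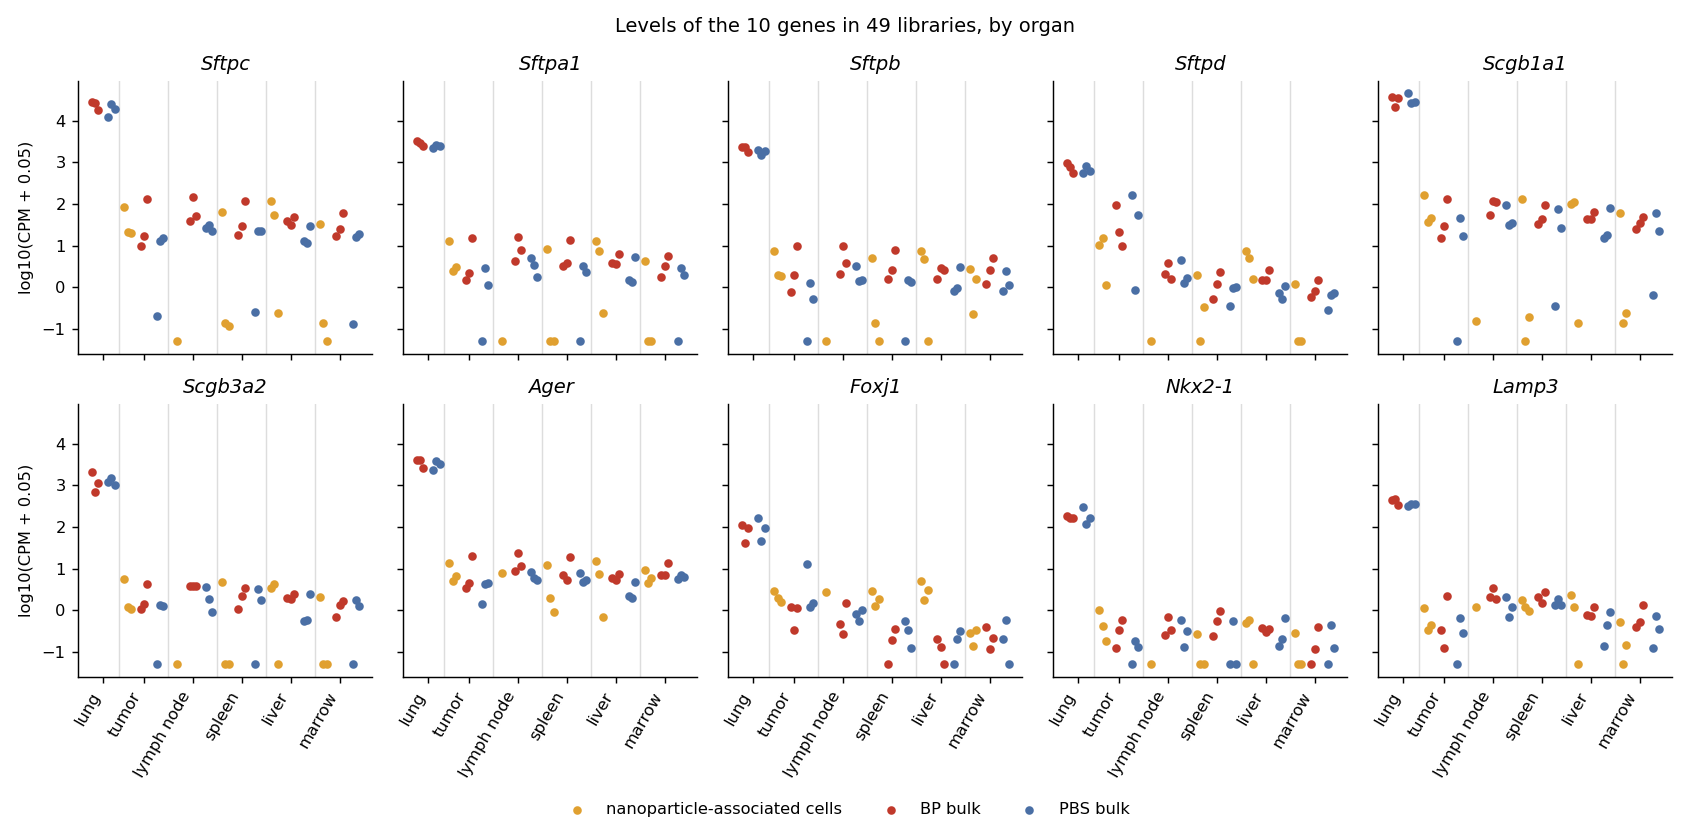
log10(CPM + 0.05) of each gene in 49 libraries, by organ, with nanoparticle-associated cells (orange), BP bulk (red) and PBS bulk (blue). Lung stands above every other organ for each gene, Sftpc, Sftpa1 and Scgb3a2 are at or below 3 counts in 9 libraries each, and Sftpd and Foxj1 reach their highest values outside lung in a tumor of a PBS mouse.

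Outside lung, the proportions of Scgb1a1 and Sftpa1 to Sftpc lay mostly within the range seen over the 6 lungs. That range was wide for Scgb1a1, and it pools mice, so no organ was matched to the lung of its own mouse. In the 22 libraries outside lung with at least 300 Sftpc counts, Scgb1a1 ran from 80.6 to 356 counts per 100 Sftpc counts, against 82.3 to 364 in the 6 lungs, and 21 of 22 lay within the lung range. Sftpa1 ran from 9.64 to 18.5, against 10.8 to 17.8 in lung, with 18 of 22 within that range. The other counts within the lung range were 19 for Scgb3a2, 17 for Sftpb and 15 for Nkx2-1, which rested on a median of only 4 counts per library. Across the 43 libraries outside lung, the genes whose log2(CPM + 0.5) followed Sftpc most closely were Scgb1a1 (Pearson r = 0.98), Sftpa1 (0.97), Sec14l3 (0.94), Scgb3a2 (0.94) and Cldn18 (0.92). These points share mice and libraries, so the values of r are descriptions.

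Ager, Lamp3, Foxj1 and Sftpd lay above the lung range more often than the other members. Within it lay 10 of the 22 libraries for Ager, 13 for Lamp3, 12 for Foxj1 and 9 for Sftpd. Relative to Sftpc, Ager lay above the lung range in 9 of the 22 libraries and Lamp3 in 7, up to 33.0 Ager counts per 100 Sftpc counts (nanoparticle-associated tumor cells of mouse 3), against 14.8 to 19.4 in lung. Foxj1 lay above in 8, on a median of only 4 counts per library, and Sftpd in 9. Below the lung range lay 3 libraries for Ager, 2 for Lamp3, 2 for Foxj1 and 4 for Sftpd, beside 5 for Sftpb and 7 for Nkx2-1. Ager was above 3 counts in all 43 libraries outside lung. Where Sftpc was at or below 3 counts, Ager still stood at 7.92 CPM (spleen) and 5.7 CPM (bone marrow) in PBS mouse 1, at 4.33 and 5.76 CPM in nanoparticle-associated marrow cells of mice 2 and 3, and at 0.641 CPM in nanoparticle-associated liver cells of mouse 3. Bone marrow held a narrow band of Ager: 8.97, 4.33 and 5.76 CPM in nanoparticle-associated cells, 6.82, 6.91 and 13.8 CPM in BP bulk, and 5.7, 7.12 and 6.23 CPM in PBS bulk.

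**Figure D3:**
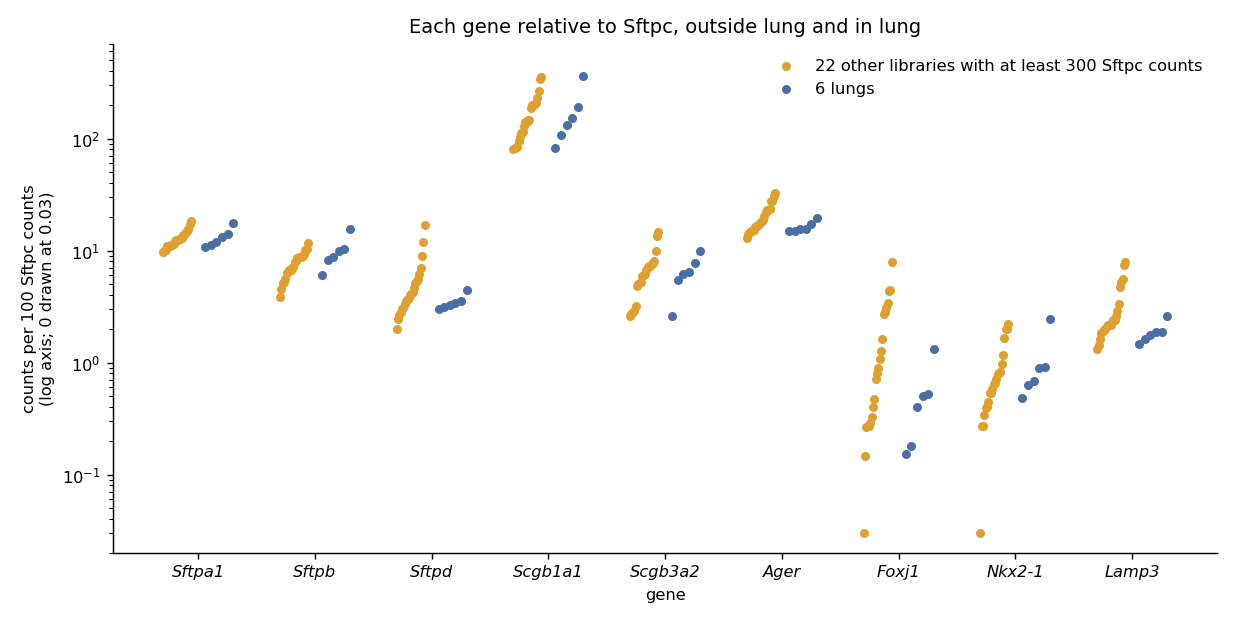
Counts of each gene per 100 Sftpc counts (log axis) in the 22 libraries outside lung with at least 300 Sftpc counts (left, orange) and in the 6 lungs (right, blue). Of the 22 libraries outside lung, 21 lie within the lung range for Scgb1a1 and 18 for Sftpa1, while 9 lie above it for Sftpd and for Ager, 8 for Foxj1, 7 for Lamp3 and 2 for Scgb3a2.

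Lamp3 reached its highest level outside lung, 3.31 CPM, in the lymph node of BP mouse 2. It stood at 1.99, 3.31 and 1.76 CPM in BP lymph nodes and 1.97, 0.653 and 1.13 CPM in PBS lymph nodes. In spleen it stood at 1.67, 1.15 and 0.899 CPM in nanoparticle-associated cells, 1.98, 1.41 and 2.73 CPM in BP bulk, and 1.29, 1.76 and 1.25 CPM in PBS bulk. In tumor it stood at 1.11, 0.286 and 0.391 CPM in nanoparticle-associated cells, 0.291, 0.072 and 2.16 CPM in BP bulk, and 0, 0.598 and 0.237 CPM in PBS bulk. In liver it stood at 2.27, 1.14 and 0 CPM in nanoparticle-associated cells, 0.705, 0.662 and 1.17 CPM in BP bulk, and 0.0845, 0.384 and 0.869 CPM in PBS bulk. Single tumor and liver libraries thus lay within the range of lymph node and spleen. The spleen of PBS mouse 1 and the nanoparticle-associated spleen cells of mice 2 and 3 held Lamp3 at the spleen levels above with at most 2 counts of Sftpc, whereas the marrow and tumor of PBS mouse 1, also near 0 in Sftpc, held 1 and 0 counts of Lamp3. The summed level of 14 mature dendritic cell genes was 1552 to 2553 CPM in BP and 1059.6 to 2591 CPM in PBS lymph nodes, against 629 to 758 CPM in the lungs. Their part in the Lamp3 values was not tested. Nkx2-1 had at most 0.983 CPM outside lung and was at or below 3 counts in 26 of 43 libraries. The thyroid gene Tg stood at 1.65 to 3.72 CPM in the lungs.

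Sftpd in tumors did not follow Sftpc. It stood at 10.1, 14.8 and 1.11 CPM in nanoparticle-associated tumor cells, 94.1, 20.9 and 9.42 CPM in BP tumors, and 161, 0.798 and 55.0 CPM in PBS tumors. The tumor of PBS mouse 1 held 2113 counts of Sftpd with 2 of Sftpc and none of Sftpa1, Sftpb or Scgb1a1. In the other organs Sftpd stayed at or below 7.21 CPM. The tumors thus spanned 0.798 to 161 CPM with each group holding high and low values, and BP against PBS was not called (log2 fold change -0.47 ± 1.49, adjusted p = 0.948; 0.85 without PBS mouse 1).

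Foxj1 in tumors was highest in the same tumor. It stood at 2.83, 1.93 and 1.56 CPM in nanoparticle-associated tumor cells, 1.16, 0.288 and 1.08 CPM in BP tumors, and 13, 1.13 and 1.42 CPM in PBS tumors. The tumor of PBS mouse 1 held 12 of 20 ciliated genes at 0 counts and a summed level of 21.5 CPM for the list, Foxj1 included. BP against PBS was not called (log2 fold change -2.45 ± 1.12, adjusted p = 0.797; -0.48 without PBS mouse 1).

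**Figure D4:**
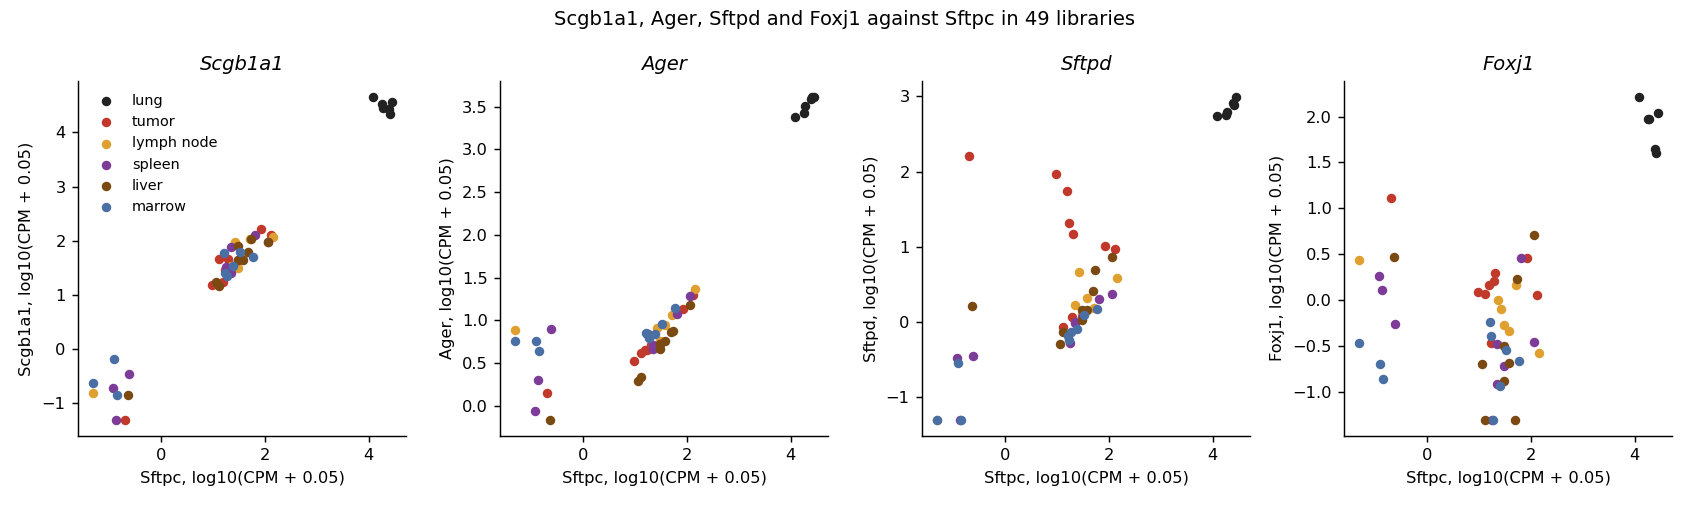
log10(CPM + 0.05) of Scgb1a1, Ager, Sftpd and Foxj1 against Sftpc in 49 libraries, coloured by organ. Scgb1a1 is high and low where Sftpc is, Ager stands at 0.641 to 7.92 CPM in the 9 libraries with at most 3 Sftpc counts, and the tumor of PBS mouse 1 holds Sftpd (161 CPM) and Foxj1 (13 CPM) with little Sftpc.

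The third comparison set BP against PBS in the organs outside lung. Members that passed the filter on low counts were 8 in tumor, 8 in lymph node, 8 in spleen, 7 in liver and 6 in bone marrow, and edgeR called none of them, where 0% of genes were called in each of these organs except liver (0.0235%, 3 genes). In lymph node Sftpc (38.4, 145 and 52.5 CPM in BP, 26.6, 30.3 and 22.8 CPM in PBS), Ager (8.79, 23.4 and 11.6 CPM in BP, 8.17, 5.71 and 5.12 CPM in PBS) and Scgb3a2 (3.78, 3.74 and 3.81 CPM in BP, 3.56, 1.8 and 0.867 CPM in PBS) were higher in every BP than in every PBS mouse. The log2 fold changes were 1.38 ± 0.59, 1.06 ± 0.48 and 0.70 ± 0.51 (adjusted p = 0.866 each), and 5.31% of 15341 genes were separated in this direction. With mitochondrial genes left out of the totals, Sftpc overlapped (41.6 CPM in BP mouse 1, 42.4 CPM in PBS mouse 2), while Ager and Scgb3a2 stayed separated. For Scgb3a2 the 95% counting intervals of BP mouse 2 (2.60 to 5.20 CPM) and PBS mouse 1 (2.61 to 4.73 CPM) overlapped.

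In liver Sftpc (38.8, 30.3 and 48.6 CPM in BP, 13.1, 11.5 and 30 CPM in PBS), Sftpd and Ager were separated in the same direction, as 6.15% of 12740 genes were. Their log2 fold changes were 1.06 ± 0.33, 1.24 ± 0.43 and 1.01 ± 0.33 (adjusted p = 0.999 each). With mitochondrial genes left out of the totals, Sftpc overlapped here too (32.1 CPM in BP mouse 2, 32.2 CPM in PBS mouse 3), while Sftpd and Ager stayed separated. The liver of PBS mouse 3 held the highest Scgb1a1 of the bulk livers (79.5 CPM). Without that liver, Scgb1a1 was called higher (1.56, adjusted p = 0.0446), as 0.0694% of genes were. In spleen Sftpa1 and Sftpb were separated (1.79 ± 0.97 and 1.99 ± 0.94, adjusted p = 1), as 2.7% of genes were, and the spleen of PBS mouse 1 held 0 counts of both. In tumor and bone marrow no member was separated, where 9.01% and 4.84% of genes were in either direction. When the BP change in 1 organ was set against the average BP change over the rest, no member was called in any organ, where 4.06% of 18613 genes were called in tumor and 0% in each of the others.

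The fourth comparison set nanoparticle-associated cells against the bulk organ of the same BP mice. Foxj1 was called higher in liver and in spleen, and Sftpd in liver. In liver it stood at 5.07, 1.66 and 2.93 CPM in nanoparticle-associated cells and at 0.157, 0.0828 and 0 CPM in bulk, with no overlap. Bulk livers held 2, 1 and 0 counts, so Foxj1 passed the filter on low counts through nanoparticle-associated cells alone, and a gene with such bulk counts could be tested only where it was higher in those cells. The log2 fold change was 5.89 ± 0.58 (adjusted p = 1.58e-05), and 5.78 ± 0.59 (adjusted p = 4.73e-10) in a fit without the filter. With 142 counts in nanoparticle-associated cells and 3 in bulk, the ratio of CPM was 39.2, with a 95% counting interval of 13.1 to 192. In spleen Foxj1 stood at 2.84, 1.23 and 1.8 CPM in nanoparticle-associated cells and 0, 0.141 and 0.304 CPM in bulk (log2 fold change 3.72 ± 0.70, adjusted p = 0.00641), from 79 and 6 counts. There too it passed the filter through nanoparticle-associated cells alone, and without the filter the change was 3.75 ± 0.71 (adjusted p = 0.0035). In tumor the groups did not overlap either, at 2.83, 1.93 and 1.56 CPM in nanoparticle-associated cells and 1.16, 0.288 and 1.08 CPM in bulk, and the test did not call it (1.3 ± 0.65, adjusted p = 0.213). In bone marrow Foxj1 did not pass the filter, with 3, 1 and 3 counts in nanoparticle-associated cells and 4, 1 and 2 in bulk.

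Foxj1 was 1 of the genes called higher, which made up 37.3% of genes in liver and 20.2% in spleen, and genes higher without overlap made up 20% in liver, 19.2% in spleen and 15.7% in tumor. In either direction these fits called 74.8% of 13247 in liver, 42.2% of 15026 in spleen, 9.04% of 14615 in tumor (1321 genes, 625 with mouse as a replicate block) and 7.69% of 13573 in bone marrow (1044 genes, 2719 with the block). Members called were 2 of 9 tested in liver, 1 of 9 in spleen, 0 of 8 in tumor and 0 of 6 in bone marrow. In liver, few ciliated genes beside Foxj1 passed the filter on low counts. Of the 20 ciliated genes 3 passed the filter in liver, Foxj1, Tppp3 (2.36 ± 0.39, adjusted p = 0.000488) and Mlf1 (3.15 ± 0.52, adjusted p = 0.000466), while 14 of 20 were at 0 counts in nanoparticle-associated liver cells of mouse 3. Ciliated genes near 0 in bulk liver could pass the filter only where they were higher in nanoparticle-associated cells, so their number is a description. Mitochondrial transcripts made up 48.2 to 57.2% of the counts of nanoparticle-associated liver cells, against 5.67 to 7.06% in BP liver. Their part in these changes was not tested.

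Other genes of the same cell types were called in both directions in nanoparticle-associated liver cells. Of 18 tested type 2 genes 6 rose, among them Sftpd and Napsa (3.51 ± 0.34, adjusted p = 1.61e-05), a protease that processes surfactant proteins. Another 5 fell, among them Abca3 (-2.14 ± 0.13, adjusted p = 9.31e-07), a lipid transporter of lamellar bodies; Napsa and Abca3 were picked after their values were seen. Of 14 tested type 1 genes 6 rose and 2 fell, and of 7 tested airway secretory genes none rose and 4 fell (Cyp2f2, Aldh1a1, Hp and Aox3). Of all genes tested, 37.3% were called higher in liver, 74.8% were called there in either direction, and 20.2% were called higher in spleen. The falling genes are not all particular to lung. In PBS mice the log2 differences of lung against liver were -2.17 for Hp, -1.68 for Aox3, -0.74 for Aldh1a1, -1.17 for Abca3 and 1.07 for Cyp2f2. Nor are the rising genes all particular to lung. Napsa differed by 6.44 between lung and liver but by only 1.17 between lung and bone marrow. Lpcat1, another rising type 2 gene, differed by 0.83 between lung and bone marrow, against 10.42 for Sftpc. Of 13 tested mature dendritic cell genes, a list that holds Lamp3, 11 rose in liver (median log2 fold change 3.64, against 0.01 for all genes) and 5 rose in spleen, whereas Lamp3 was called in neither (1.24 ± 0.75 in liver, adjusted p = 0.16). In bone marrow no type 2, type 1, airway secretory or ciliated gene was called.

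The other called member was Sftpd in liver. It stood at 7.21, 4.84 and 1.56 CPM in nanoparticle-associated cells and at 1.41, 1.41 and 2.5 CPM in bulk (log2 fold change 2.17 ± 0.47, adjusted p = 0.00247). In CPM of library totals the groups overlapped, since nanoparticle-associated cells of mouse 3 lay between the bulk livers. With mitochondrial genes left out of the totals they did not overlap. The values were then 13.9, 11.3 and 3.55 CPM in nanoparticle-associated cells and 1.5, 1.49 and 2.69 CPM in bulk. This scaling raised every other gene more in nanoparticle-associated liver cells (48.2 to 57.2% mitochondrial) than in BP bulk liver (5.67 to 7.06%). The share of all genes without overlap under it was not determined. In the fit over 48 libraries Sftpd was not called (adjusted p = 0.0963). Sftpc moved with it in mice 1 and 2, at 116 and 53.8 CPM in nanoparticle-associated cells against 38.8 and 30.3 CPM in bulk, and in mouse 3 it stood at 0.183 CPM in nanoparticle-associated cells against 48.6 CPM in bulk. Without nanoparticle-associated liver cells of mouse 3, all 9 tested members were called higher. In spleen, without nanoparticle-associated cells of mouse 1, 6 members other than Foxj1 were called lower, and in bone marrow, without those of mouse 1, 4 members were. Of all genes, 35.5% were called higher in that liver fit, 22% lower in that spleen fit and 6.4% lower in that bone marrow fit. Each of these fits kept 2 nanoparticle-associated libraries. The library left out stood apart in Sftpc, with 2 counts in liver against 1784 and 1034. In spleen it held 884 against 1 and 1, and in bone marrow 419 against 1 and 0. The direction of these calls thus followed from which library was left out, and the members called are not separate support.

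**Figure D5:**
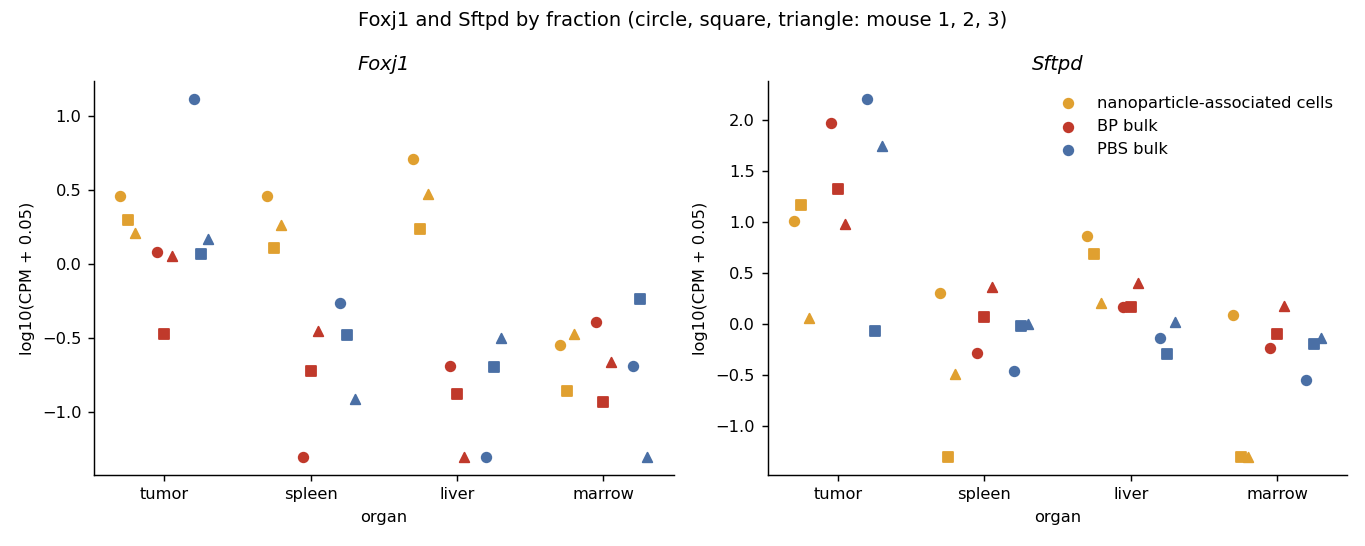
log10(CPM + 0.05) of Foxj1 (left panel) and Sftpd (right panel) in nanoparticle-associated cells (orange), BP bulk (red) and PBS bulk (blue) of 4 organs, with the mouse shown by the marker. Foxj1 in nanoparticle-associated cells of tumor, spleen and liver lies above BP bulk without overlap, and Sftpd spans 0.798 to 161 CPM in tumor.

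Whether a change in nanoparticle-associated cells differed between organs was tested in 1 fit of 24 libraries, as the change in 1 organ minus the mean change in the other 3. The libraries came from the 3 BP mice and the fit had no term for the mouse, although libraries of 1 mouse are not independent. In this fit 53.7% of 17281 genes were called in liver, 15% in bone marrow, 23.8% in tumor and 18.2% in spleen. Foxj1 differed in liver (4.19 ± 0.93 on the log2 scale, adjusted p = 0.000793) and in bone marrow (-3.52 ± 1.00, adjusted p = 0.0238). BP bulk held 3 counts of Foxj1 in liver, 6 in spleen and 7 in bone marrow, so nanoparticle-associated cells carried it past the filter. In bone marrow both fractions held 7 counts, so the difference there comes from the changes in the other 3 organs. Sftpd differed in liver (3.45 ± 1.27, adjusted p = 0.0279), where Sftpd of tumor, with its own range, is among the organs compared. With library totals in place of TMM scaling the adjusted p of Sftpd was 0.0611. With each of the 24 libraries left out in turn, a check chosen after seeing the data, Foxj1 in liver kept its call. Sftpd in liver lost it without BP liver 1 or 2 or nanoparticle-associated liver cells of mouse 1 or 2 (adjusted p 0.0592 to 0.0714), and Foxj1 in bone marrow lost it without BP marrow 1 (0.163), BP marrow 3 (0.057) or nanoparticle-associated marrow cells of mouse 2 (0.0691). No other member tested was called in any of the 4 organs, and Nkx2-1 did not pass the filter.

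Across all 49 libraries the non-member genes most like each member, by Pearson r of log2(CPM + 0.5), were mostly other genes of lung epithelium. Sec14l3, Cldn18 (a tight junction gene of alveolar cells) and Cxcl15 (a chemokine of lung epithelium) were the closest to Sftpc (r = 0.96, 0.95 and 0.95), Sftpa1, Scgb1a1 and Scgb3a2. Sftpb was closest to Sec14l3, Cldn18 and Chia1 (r = 0.99, 0.99 and 0.98), and Ager to Chia1, Clic3 and Cldn18 (0.98 each). Nkx2-1 was closest to Sfta3-ps (0.99), Lamp3 to Scel (0.98), Foxj1 to Gprc5a (0.94) and Sftpd to Wfdc2 (0.93). Foxj1 and Sftpd had the lowest likeness of the set, and both had Ankrd1 as their second gene. The 6 lungs and the 43 other libraries form separate clusters in these values, which are descriptions.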

How the data were processed

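RNA was sequenced from bulk organs and from magnetically separated cells. The files hold expected counts per gene, deposited by the authors; per the submitters' processing notes the tools included FastQC 0.11.9, cutadapt 3.5, STAR 2.7.9a and RSEM 1.3.1 with build mm10. Of the deposited expected counts, 4.64 to 7.92% per library were not whole, and all were rounded. Levels are CPM of the library total. Only counting error is covered by the intervals and the floors.

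Changes were tested with edgeR 4.0.16 in R 4.3.3 (TMM, filterByExpr with a minimum count of 10, quasi-likelihood test, Benjamini-Hochberg adjustment over all genes tested, threshold 0.05), on the libraries of each comparison. Lung and other organs of PBS mice were fitted together. Standard errors were derived from the fold change and the F statistic. Alternatives were DESeq2 1.42.0, other scalings, no filter on low counts, a fit over 48 libraries, the replicate number as a block and each library left out. On simulated counts for BP against PBS in lung, with 15502 genes, 51.0% of genes changed by 1 on the log2 scale and 88.7% of those changed by 2 were recovered. There were 98 genes changed by 1, 97 changed by 2, and 15 false calls. These are not rates for the 10 genes, whose standard errors in lung reached 0.53 (Sftpc).

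Nanoparticle-associated cells and BP bulk of 1 number came from the same mouse, per the labels, and correlations of their deviations ran from -0.14 to 0.66. BP and PBS numbers name different mice. The 10 genes, the marker lists and the tests were chosen with earlier results of these data known. Text names these genes, the non-member genes with the highest correlation to each, and genes of the lists.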

Additional observations from a re-analysis of the deposited data

Results flagged for a closer look

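The change of Foxj1 in nanoparticle-associated cells against BP bulk differed between organs. It was larger in liver than the mean of the other 3 organs by 4.19 on the log2 scale, and in bone marrow it lay below that mean by a difference of -3.52. For Sftpd the change in liver differed from the mean of the other 3 organs by 3.45. Each came from a test of the difference between organs, which called 53.7% of 17281 genes in liver and 15% in bone marrow. BP bulk liver held 3 counts of Foxj1, so nanoparticle-associated cells carried it past the filter on low counts. The calls of Foxj1 in bone marrow and of Sftpd in liver were lost when certain single libraries were left out. In bone marrow itself Foxj1 had 7 counts in nanoparticle-associated cells and 7 in BP bulk.

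The single library of nanoparticle-associated lymph node cells, from BP mouse 2, enters no comparison. It held Foxj1 at 2.7 CPM (26 counts), against 0.412, 0.214 and 1.41 CPM in BP lymph nodes and 0.757, 0.490 and 0.954 CPM in PBS lymph nodes, while Sftpc was at 0 counts. With 1 library there is no replicate of this value.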

How the results depend on the processing

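Of 388 recomputed values of 30 member changes, 371 kept direction and side of the threshold, 1 lost its call, 6 gained one and 10 turned direction. Only 18 of the 30 changes kept both in all settings. Most of the 30 were not called to begin with, so keeping the side mostly means staying uncalled. The number of members called was 1 instead of 0 for BP against PBS in tumor in the fit over 48 libraries and in liver without a filter on low counts. For nanoparticle-associated cells it was 1 instead of 0 in tumor in the fit over 48 libraries, and in liver 5 without the filter and 1 in the fit over 48 libraries, instead of 2. Leaving out 1 library gave 0 to 1 for BP against PBS in liver, and for nanoparticle-associated cells 1 to 7 in spleen (7 without mouse 1), 2 to 9 in liver (9 without mouse 3) and 0 to 4 in bone marrow (4 without mouse 1). It gave 2 to 11 organ differences, 11 without nanoparticle-associated spleen cells of mouse 1. Leaving out 1 lung, the log2 changes ran from -0.22 to 0.13 for Scgb1a1, -0.47 to 0.40 for Scgb3a2, -0.53 to 0.22 for Foxj1 and -0.31 to 0.23 for Nkx2-1, and leaving out 1 tumor that of Sftpd ran from -2.25 to 0.85. With the replicate block Scgb3a2 in lung was -0.017 and Sftpd in tumor was 0.086, and the number of members called changed in no comparison. BP and PBS samples share only a number, not a mouse. The cause of these shifts was not tested. Over all genes, BP against PBS in tumor called 0 genes with edgeR, 182 with DESeq2 and 1482 in the fit over 48 libraries. Library totals in place of TMM moved the share of higher calls to 28% in nanoparticle-associated liver cells, against 49.9%, and shifted the median of all genes there to -0.80, against 0.01.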
